A study of Rattus norvegicus with 14 samples.

Results

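The proteasome is the barrel-shaped protease that degrades proteins tagged with ubiquitin, and its subunit genes were followed here in plantaris, a fast-twitch calf muscle of the rat, under 3 vitamin D diets. The genes were taken by symbol: every array probe named Psma, Psmb, Psmc, Psmd, Psme or Psmf with a number, without the immunoproteasome subunits Psmb8, Psmb9 and Psmb10. This gave 41 of the 26115 gene names on the array. All 41 had a probe that passed the filter on dim probes, as did 22815 gene names in all. They comprise 16 genes of the 20S core, 20 genes of the 19S regulatory particle or its assembly, and 5 genes of other activators or an inhibitor.

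Total RNA of plantaris from Wistar rats was labelled with Cy3 and hybridised to 14 Agilent arrays of 1 colour. Control rats (n = 4) were fed 1000 IU of vitamin D per kg of diet, depletion rats (n = 6) a vitamin D-depleted diet, while repletion rats (n = 4) were first depleted and then given vitamin D again. All groups were Wistar; the sources used here do not give the animals' age and sex, how long they were fed or what the other diets held of vitamin D. By their titles the samples of a group are biological replicates. For depletion replicate 1 the title says depletion but the diet label repletion. This array was kept as depletion and also stands apart in the proteasome genes, so results are given with and without it.

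A level here is the log2 of a probe's signal over the 75th percentile of its array, and each probe has its own scale. The brightest probe stood for a gene with several probes. Differences are log2 differences ± SE from 1 limma fit over 14 arrays with the array slide as a block. The share of spots well above background ran from 82.8% to 88.1%, the 75th percentile lay between 1781 and 2387, and 0 spots were saturated. All 9 skeletal muscle markers, among them Ckm and Acta1, were well above background on 14 of 14 arrays. Depletion replicate 1 shared slide 1 with repletion replicate 1 and with replicates 1 and 2 of control. On slide 2 were control replicate 3, depletion replicate 2 and repletion replicate 2, on slide 3 depletion replicates 3 and 4 and repletion replicate 3, control replicate 4 and depletion replicate 5 were on slide 4, and depletion replicate 6 and repletion replicate 4 on slide 5. The number of arrays limits the precision: the SE of the 41 genes ran from 0.09 to 0.27 between depletion and control.

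The 20S core is a stack of alpha rings, which gate the entrance, and beta rings, whose inner faces carry the proteolytic sites. The 19S particle caps it: an ATPase ring of Psmc proteins unfolds substrates, and Psmd proteins bind ubiquitin chains and remove them. In muscle this system degrades myofibrillar proteins, and its genes are known to rise in atrophy. In mammals the transcription factor encoded by Nfe2l1 induces the subunit genes together when the proteasome is inhibited, through antioxidant response elements in their promoters.

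The promoters of 6 members are shown because 4 of them hold a match to the response element core (the catalytic subunits Psmb5 and Psmb6, and Psmb2 and Psma3), and 2 belong to genes that followed the other members closely across arrays (Psmc1 and Psmb4, with no such match). Each is the 250 bases before the gene's start in the RefSeq annotation of GRCr8, 5′ to 3′ on the gene's strand. Capitals mark matches to TGACNNNGC, the core of the antioxidant response element, or to CCAAT, on either strand. Psmb5 lies on the minus strand at chr15:32047380-32047629, Psmb6 on the plus strand at chr10:55737638-55737887 and Psmb2 on the plus strand at chr5:144254808-144255057, where a CCAAT match runs into the TGACNNNGC match. Psma3 is on the plus strand at chr6:95219499-95219748, Psmc1 on the plus strand at chr6:125122247-125122496 and Psmb4 on the minus strand at chr2:185134562-185134811.
Psmb5: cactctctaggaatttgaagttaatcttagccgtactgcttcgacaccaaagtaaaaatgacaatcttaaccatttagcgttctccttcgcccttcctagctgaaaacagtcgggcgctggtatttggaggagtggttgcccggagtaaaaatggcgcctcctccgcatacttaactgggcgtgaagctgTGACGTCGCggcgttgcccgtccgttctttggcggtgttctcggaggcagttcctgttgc
Psmb6: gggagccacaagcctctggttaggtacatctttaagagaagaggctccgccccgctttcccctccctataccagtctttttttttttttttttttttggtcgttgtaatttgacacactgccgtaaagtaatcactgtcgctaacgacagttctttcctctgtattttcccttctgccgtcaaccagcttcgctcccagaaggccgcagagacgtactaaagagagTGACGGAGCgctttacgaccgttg
Psmb2: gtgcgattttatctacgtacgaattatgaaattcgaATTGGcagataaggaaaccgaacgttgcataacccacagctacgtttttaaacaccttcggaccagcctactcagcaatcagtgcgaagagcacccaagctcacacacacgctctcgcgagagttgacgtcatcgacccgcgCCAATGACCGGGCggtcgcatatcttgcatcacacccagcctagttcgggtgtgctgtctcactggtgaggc
Psma3: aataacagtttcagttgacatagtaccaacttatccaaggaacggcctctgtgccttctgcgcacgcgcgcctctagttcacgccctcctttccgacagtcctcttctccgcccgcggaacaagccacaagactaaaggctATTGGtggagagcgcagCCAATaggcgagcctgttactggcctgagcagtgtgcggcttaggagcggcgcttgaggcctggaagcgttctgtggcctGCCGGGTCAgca
Psmc1: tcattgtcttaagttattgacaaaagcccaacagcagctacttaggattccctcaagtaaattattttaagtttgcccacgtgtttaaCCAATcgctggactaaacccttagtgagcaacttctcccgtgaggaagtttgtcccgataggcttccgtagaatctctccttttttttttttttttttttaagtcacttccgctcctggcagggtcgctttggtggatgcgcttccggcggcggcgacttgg
Psmb4: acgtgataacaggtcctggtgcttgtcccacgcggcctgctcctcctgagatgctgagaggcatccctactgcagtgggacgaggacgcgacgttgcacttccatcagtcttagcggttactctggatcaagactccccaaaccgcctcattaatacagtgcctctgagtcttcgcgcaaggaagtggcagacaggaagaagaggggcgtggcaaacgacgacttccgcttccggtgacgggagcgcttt
Of the 41 genes, 36 were matched to the promoter table by symbol. TGACNNNGC was found in 7 of 36 (Psmb2, Psma3, Psmd1, Psmb6, Psmd9, Psme4 and Psmb5), or 19.4%, against 10.1% of all 33469 promoters of the same length. CCAAT was in 18 of 36 (50%, against 34.0% of all), GGGCGG in 25 of 36 (69.4%, against 30.5%) and TATAAA in 4 of 36 (11.1%, against 12.9%), all on either strand. By subcomplex, TGACNNNGC was in 4 of 14 promoters of the 20S core and 2 of 17 of the 19S particle or its assembly. A match describes these letters only.

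The comparison of depletion with control asked whether a lack of dietary vitamin D went with other levels of proteasome transcripts. Limma called 0 of 41 genes at an adjusted p under 0.05, as it called 0% of the 22815 genes tested. The lowest adjusted p among the members was 0.832. At an unadjusted p under 0.05, 1 member was higher (Psmd9, against 2.21% of all genes) and 0 were lower (against 2.56%). The difference was above 0 for 31 of 41 members, against 46.1% of all genes, with a median of 0.05 for the members and -0.02 for all genes. The 20S median was 0.06 and the 19S median 0.04. In 0 members did the groups not overlap, against 0.351% of all genes higher and 0.46% lower. The direction rested on depletion replicate 1: without it 12 of 41 were above 0, against 48.9% of all genes, and the median was -0.08. The 19S genes then had 3 of 20 above 0 and the 20S genes 7 of 16, with medians of -0.09 and -0.02. With all arrays but no slide block, 22 of 41 were above 0, against 47.3% of all genes, and the median was 0.02.

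**Figure D1:**
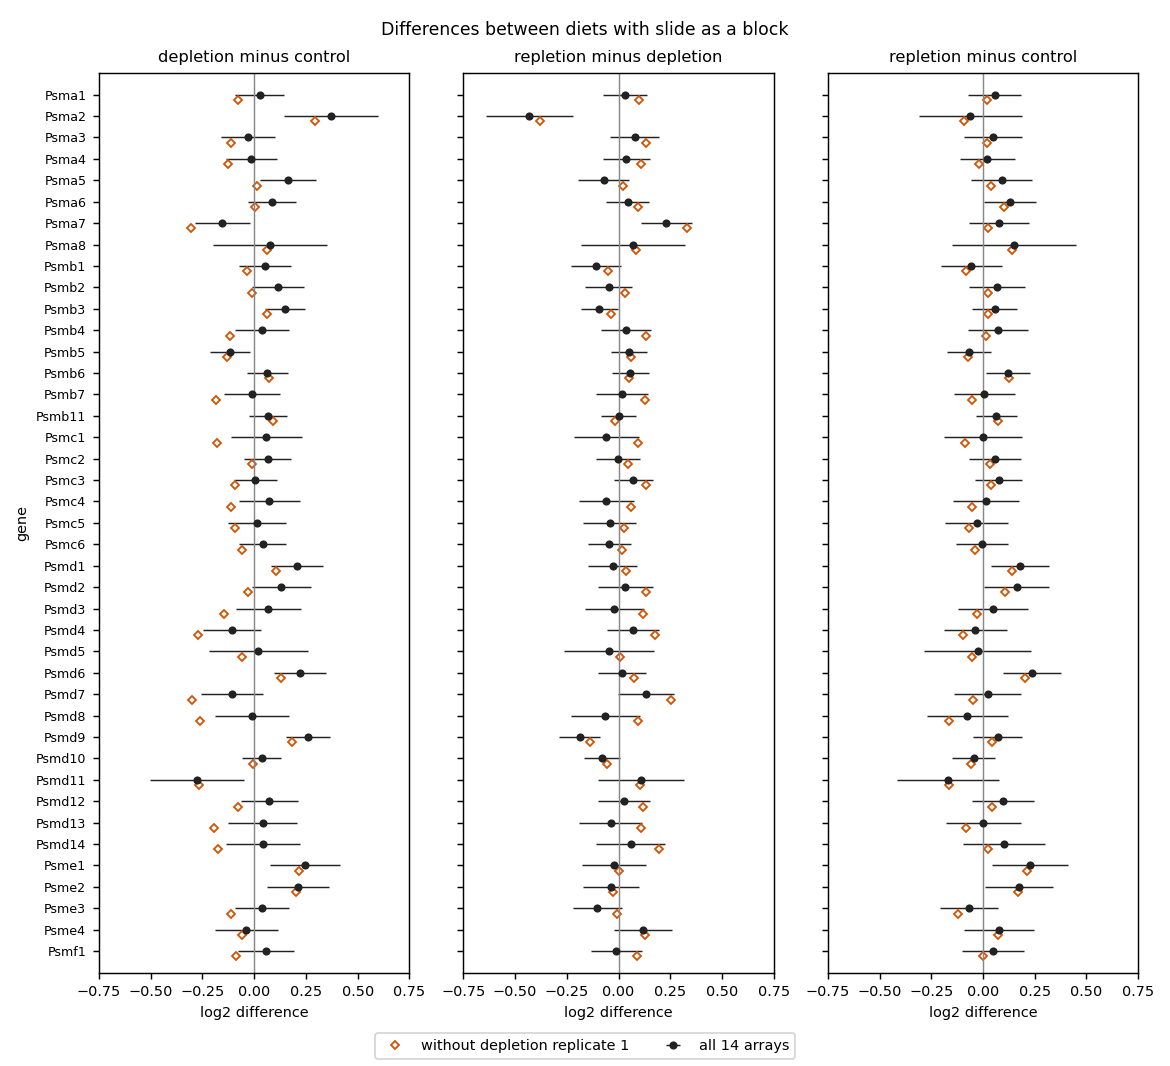
Log2 difference between diets (x axis) for each of the 41 genes (y axis), with slide as a block. Filled circles with bars are the estimate ± SE over 14 arrays and open diamonds the estimate without depletion replicate 1. In the left panel most diamonds lie to the left of the circles: the median goes from 0.05 to -0.08.

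Repletion against depletion compares animals given vitamin D again after depletion with animals on the depleted diet. Limma called 0 of 41 members, and 0% of all genes, with a lowest adjusted p of 0.933 among the members. At an unadjusted p under 0.05, 0 members were higher (2.36% of all genes) and 0 lower (1.02%), and in 0 did the groups not overlap (0.206% of all genes higher, 0.0701% lower). The difference was above 0 for 19 of 41 members, against 58.3% of all genes, with a median of -0.00 against 0.03. The 20S median was 0.03 and the 19S median -0.02. Without depletion replicate 1, 32 of 41 were above 0, against 56.3% of all genes, and the median was 0.08. The 20S median was then 0.07 and the 19S median 0.09.

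Repletion against control compares animals with vitamin D in the diet that did and did not pass through depletion. Limma called 0 of 41 members, and 0% of all genes. At an unadjusted p under 0.05, 0 members were higher (1.27% of all genes) and 0 lower (0.697%). The difference was above 0 for 29 of 41, against 53.7% of all genes, with a median of 0.06 against 0.01. The 20S median was 0.06 and the 19S median 0.02. With no slide block 22 of 41 were above 0, against 51.5% of all genes, and the members' median was 0.01. Psmd2 was the 1 member whose groups did not overlap, higher in repletion, as were 0.728% of all genes, with 0 members lower (0.43% of all genes). Without depletion replicate 1, 23 of 41 were above 0, against 53.8% of all genes, and 0 had an unadjusted p under 0.05 in either direction (1.57% of all genes higher, 0.684% lower). The 20S median was then 0.02 and the 19S median -0.04. The 3 comparisons share arrays: the depletion arrays serve both comparisons with depletion, and the control arrays both with control.

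Among the alpha subunits, Psma2 and Psma7 had the lowest unadjusted p in repletion minus depletion, on opposite sides of 0. Psma2 was at 1.88, 2.46, 2.16 and 1.14 in control, at 1.85, 1.82, 1.87 and 2.43 in repletion, and from 1.98 to 2.64 (median 2.34) in depletion. Control replicate 4 was the lowest of all arrays and the groups overlapped. The difference was 0.37 ± 0.23 for depletion minus control and -0.43 ± 0.21 for repletion minus depletion (limma adjusted p 0.832 and 0.933). Without control replicate 4 the first was 0.11. The genomic coordinates of its probe, chr17:58736661-58738012, span 1352 bases, more than the probe length of 60 bases. They are of rn4, the build of the array files, whose gene annotation was not used here.

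Psma7, another alpha subunit, was at 4.07, 4.40, 4.37 and 4.40 in control, at 4.30, 4.35, 4.43 and 4.19 in repletion, and from 3.83 to 4.44 (median 4.07) in depletion. Depletion replicate 1 was the highest of all 14 arrays, while the other 5 depletion arrays lay at 4.18 or lower. The difference was -0.15 ± 0.13 for depletion minus control and 0.23 ± 0.12 for repletion minus depletion (limma adjusted p 0.849 and 0.933). Without depletion replicate 1 these were -0.31 ± 0.12 (unadjusted p 0.028) and 0.33 ± 0.10 (unadjusted p 0.010), with limma adjusted p of 1.000 and 0.999. Of the other alpha genes, Psma6 was at 4.91 ± 0.14 (SD, n = 4) in control and 4.99 ± 0.13 (n = 6) in depletion. Psma3 was at 0.83 ± 0.09 (n = 4) in control and 0.83 ± 0.23 (n = 6) in depletion, and a near copy, Psma3l, is on the array, so its signal may be shared. Psma8, a testis subunit, was well above background on 11 of 14 arrays at -6.32 on average, and its 2 kept probes differed in sign (0.08 and -0.30 for depletion minus control).

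The catalytic beta subunits stayed within a narrow range. Psmb5, which cuts after hydrophobic residues, was at 3.70, 3.83, 3.80 and 4.08 in control, at 3.71, 3.84, 3.83 and 3.93 in repletion, and from 3.66 to 4.01 (median 3.83) in depletion. The groups overlapped throughout, with differences of -0.12 ± 0.10, 0.05 ± 0.09 and -0.07 ± 0.11 in the order of the comparisons above. Its probe is at chr15:32690134-32690193 (rn4). Psmb6, which cuts after acidic residues, was at 2.73, 2.95, 2.87 and 2.69 in control and from 2.78 to 3.10 (median 2.87) in depletion. Repletion was at 2.99, 2.96, 2.95 and 2.94, close together near the upper end of the control range, and repletion minus control was 0.12 ± 0.11. Psmb7, which cuts after basic residues, was at 2.74, 2.84, 2.82 and 3.11 in control, at 2.75, 2.85, 2.81 and 3.11 in repletion, and from 2.72 to 3.18 (median 2.83) in depletion. The array on slide 4 or 5 was the high one in control and in repletion, and depletion replicate 1 in depletion. The differences were -0.01 ± 0.14, 0.02 ± 0.12 and 0.01 ± 0.15. Depletion minus control was -0.18 ± 0.10 and repletion minus depletion 0.13 ± 0.09 without depletion replicate 1.

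Among the structural beta subunits, Psmb3 gave 0.15 ± 0.10 for depletion minus control and -0.09 ± 0.09 for repletion minus depletion, and 0.06 ± 0.09 and -0.04 ± 0.08 without depletion replicate 1. Psmb4 was at 4.50, 4.74, 4.48 and 4.78 in control, at 4.67, 4.55, 4.60 and 4.73 in repletion, and from 4.29 to 5.02 (median 4.60) in depletion. Depletion held both its highest and its lowest array, replicates 1 and 2. Psmb11, the catalytic subunit of thymic cortical epithelium, was dim (-3.70 ± 0.23 in control, n = 4), though well above background on 14 of 14 arrays. Slide held a share of 0.956 of its variance: all 6 arrays of slides 2 and 3 lay between -3.37 and -3.17 and the other 8 at -3.68 or lower. For Psmb1 the value of repletion replicate 2 was missing as an outlier-marked spot.

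**Figure D2:**
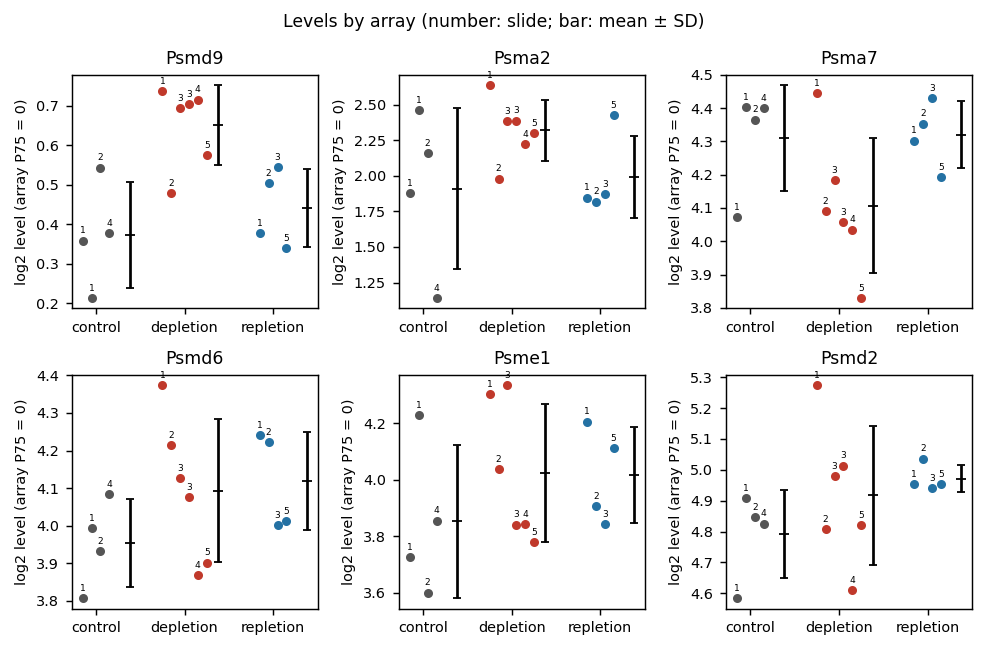
Log2 level (y axis, relative to the array's 75th percentile) of 6 genes on each array by diet (x axis), with the slide number above each point and mean ± SD beside each group. Depletion replicate 1 is the highest of the 14 arrays for 5 of the 6 genes, the exception being Psme1, and the 4 repletion arrays of Psmd2 lie above all 4 control arrays.

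All 6 ATPases of the 19S base had small differences: the largest for depletion minus control was 0.07 ± 0.15 (Psmc4), and those for repletion minus depletion ran from -0.06 ± 0.13 (Psmc4) to 0.07 ± 0.09 (Psmc3). Depletion minus control was above 0 for all 6, but without depletion replicate 1 it was below 0 for all 6, from -0.18 ± 0.12 (Psmc1) to -0.01 ± 0.12 (Psmc2). Psmc1 was at 2.66, 2.92, 3.01 and 2.83 in control, at 2.80, 2.81, 2.79 and 2.92 in repletion, and from 2.62 to 3.42 (median 2.79) in depletion. Depletion replicate 1 stood apart at 3.42, with 2.87 as the next value of its group. The difference was 0.06 ± 0.17 for depletion minus control and -0.06 ± 0.16 for repletion minus depletion. Psmc5 was at 5.68 ± 0.22 (SD, n = 4) in control, 5.70 ± 0.18 (n = 6) in depletion and 5.63 ± 0.15 (n = 4) in repletion.

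Of the non-ATPase subunits, Psmd1 and Psmd2 are the large scaffolds of the base, and Psmd6 belongs to the lid. Psmd6 was at 3.81, 3.99, 3.93 and 4.08 in control, at 4.24, 4.22, 4.00 and 4.01 in repletion, and from 3.87 to 4.37 (median 4.10) in depletion. The groups overlapped, and the difference was 0.22 ± 0.13 for depletion minus control and 0.24 ± 0.14 for repletion minus control (limma adjusted p 0.832 and 1.000). Within slides, depletion minus control was 0.47 on slide 1, 0.28 on slide 2 and -0.21 on slide 4. Its probe is at chr15:12660412-12660471 (rn4). Psmd1 gave 0.21 ± 0.13 for depletion minus control and 0.18 ± 0.14 for repletion minus control. Depletion minus control was 0.11 ± 0.13 for Psmd1 and 0.13 ± 0.13 for Psmd6 without depletion replicate 1, and without control replicate 4 it was 0.38 for Psmd6. Without control replicate 1 repletion minus control was 0.079 for Psmd1.

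Psmd2 was at 4.58, 4.91, 4.85 and 4.83 in control and at 4.95, 5.04, 4.94 and 4.95 in repletion, with every repletion array above every control array. Depletion ran from 4.61 to 5.27 (median 4.90) and overlapped both. Repletion minus control was 0.16 ± 0.16 (limma adjusted p 1.000). Psmd7, of the deubiquitinating module, was at 2.10, 2.27, 2.29 and 2.53 in control, at 2.27, 2.14, 2.21 and 2.39 in repletion, and from 2.00 to 2.55 (median 2.08) in depletion. Depletion replicate 1 was at 2.55 and the other 5 at 2.10 or lower. Without that array Psmd7 was lower by -0.30 ± 0.11 in depletion than in control (unadjusted p 0.028) and higher by 0.25 ± 0.10 in repletion than in depletion (unadjusted p 0.029). Together with Psma7 and the ubiquitin receptor Psmd4 (-0.27 ± 0.12, unadjusted p 0.048), 3 of 41 members were then lower in depletion than in control at an unadjusted p under 0.05, against 1.6% of all genes, and 0 higher, against 1.32%. In repletion minus depletion 2 of 41, Psma7 and Psmd7, were then higher, against 1.9% of all genes, and 0 lower, against 0.872%. Limma's adjusted p stayed at 0.999 or above for all of these.

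Psmd11, a lid subunit, had values in separate ranges that followed no diet. It was at -1.66, -1.57, -0.45 and -0.68 in control, at -1.50, -0.33, -0.86 and -0.45 in repletion, and at -1.82, -0.13, -0.66, -0.52, -1.91 and -0.68 in depletion replicates 1 to 6. All 4 arrays of slide 1 and depletion replicate 5 lay at -1.50 or lower and the other 9 at -0.86 or higher. Depletion minus control was -0.28 ± 0.23, but 0.14 without the slide block and 0.07 without depletion replicate 5 or control replicate 4, which share slide 4. Its probe is at chr10:68710175-68710234 (rn4).

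Psmd9, a chaperone of 19S base assembly, was the member with the lowest unadjusted p. It was at 0.36, 0.21, 0.54 and 0.38 in control, at 0.38, 0.50, 0.54 and 0.34 in repletion, and at 0.74, 0.48, 0.69, 0.70, 0.72 and 0.58 in depletion. Of the 6 depletion arrays, 5 lay above all control and repletion arrays, and depletion replicate 2 overlapped both. The difference was 0.26 ± 0.11 for depletion minus control (unadjusted p 0.039, limma adjusted p 0.832) and -0.19 ± 0.10 for repletion minus depletion (limma adjusted p 0.933). Within slides 1, 2 and 4 depletion minus control was 0.45, -0.06 and 0.34, and without depletion replicate 1 it was 0.18 ± 0.11 (unadjusted p 0.142). A second Psmd9 probe gave 0.10 ± 0.15, and for repletion minus control it gave -0.03 where the main probe gave 0.07. The main probe is at chr12:34500670-34500729 and the second at chr12:34494493-34494552 (rn4). The other base chaperones, Psmd5 and Psmd10, gave 0.02 ± 0.24 and 0.04 ± 0.09 for depletion minus control.

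Psme1 and Psme2 form the activator that opens the core and is known to be induced by interferon. Psme1 was at 3.73, 4.23, 3.60 and 3.86 in control, at 4.21, 3.91, 3.84 and 4.11 in repletion, and from 3.78 to 4.33 (median 3.94) in depletion. Psme2 was at 3.36, 3.90, 3.27 and 3.49 in control, at 3.83, 3.54, 3.51 and 3.64 in repletion, and from 3.44 to 3.94 (median 3.60) in depletion. Both overlapped in all groups, with differences of 0.25 ± 0.17 and 0.21 ± 0.15 for depletion minus control (limma adjusted p 0.832 and 0.833). Psme3, the nuclear activator, gave 0.04 ± 0.13, and Psme4, which acts in the nucleus on acetylated histones, -0.04 ± 0.15 by 1 probe and 0.07 ± 0.20 by another. Psmf1, an inhibitor of the core, gave 0.06 ± 0.14 and -0.08 ± 0.12 by its 2 probes; depletion replicate 4 was missing on the first as an outlier-marked spot.

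The immunoproteasome subunits, outside the 41 genes, replace the catalytic beta subunits under interferon. Psmb9 was at -0.61, -0.59, -0.78 and -0.53 in control, at -0.48, -0.41, -0.26 and -0.45 in repletion, and from -0.70 to -0.09 (median -0.28) in depletion. Repletion lay wholly above control, and of the depletion arrays replicate 6 lay within the control range. The difference was 0.36 ± 0.12 for depletion minus control (unadjusted p 0.015) and 0.33 ± 0.13 for repletion minus control (unadjusted p 0.032), with limma adjusted p of 0.832 and 1.000. Without depletion replicate 1 these were 0.26 ± 0.12 (unadjusted p 0.067) and 0.30 ± 0.12 (unadjusted p 0.037). The 6 measured leukocyte markers were well above background on 14 of 14 arrays. Their mean deviation was -0.22 to -0.12 on control arrays, -0.39 to 0.44 on depletion arrays and 0.00 to 0.13 on repletion arrays. Of the 6, 5 were above 0 in depletion minus control (46.1% of all genes) and 4 in repletion minus control (53.7%). The markers differed: repletion minus control was highest for Aif1 (0.75 ± 0.26) and below 0 for Csf1r (-0.13 ± 0.17) and Itgam (-0.10 ± 0.17). The part of these markers in the Psmb9 values was not tested. In whole muscle, fewer cells of a type and less RNA per cell cannot be told apart. Psmb8 gave 0.32 ± 0.27 and Psmb10 0.08 ± 0.13 for depletion minus control; Psmb8 was at 0.02 ± 0.25 without depletion replicate 1.

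What the members shared was a movement from array to array that crossed the diets. Depletion replicate 1 had the highest of the 14 values for 30 of 41 members, while 14.8% of all genes peaked on that array and 19.3% had their lowest value there. On it 37 of 41 members lay above their own mean, against 40.7% of all genes. Control replicate 1, on the same slide, had 4 of 41 above their own mean, against 39.3% of all genes. Depletion replicates 2, 5 and 6 had 9 of 41 each, against 58.2%, 57.3% and 47.7% of all genes. The depletion group therefore held both the highest array and 3 of the 4 lowest.

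**Figure D3:**
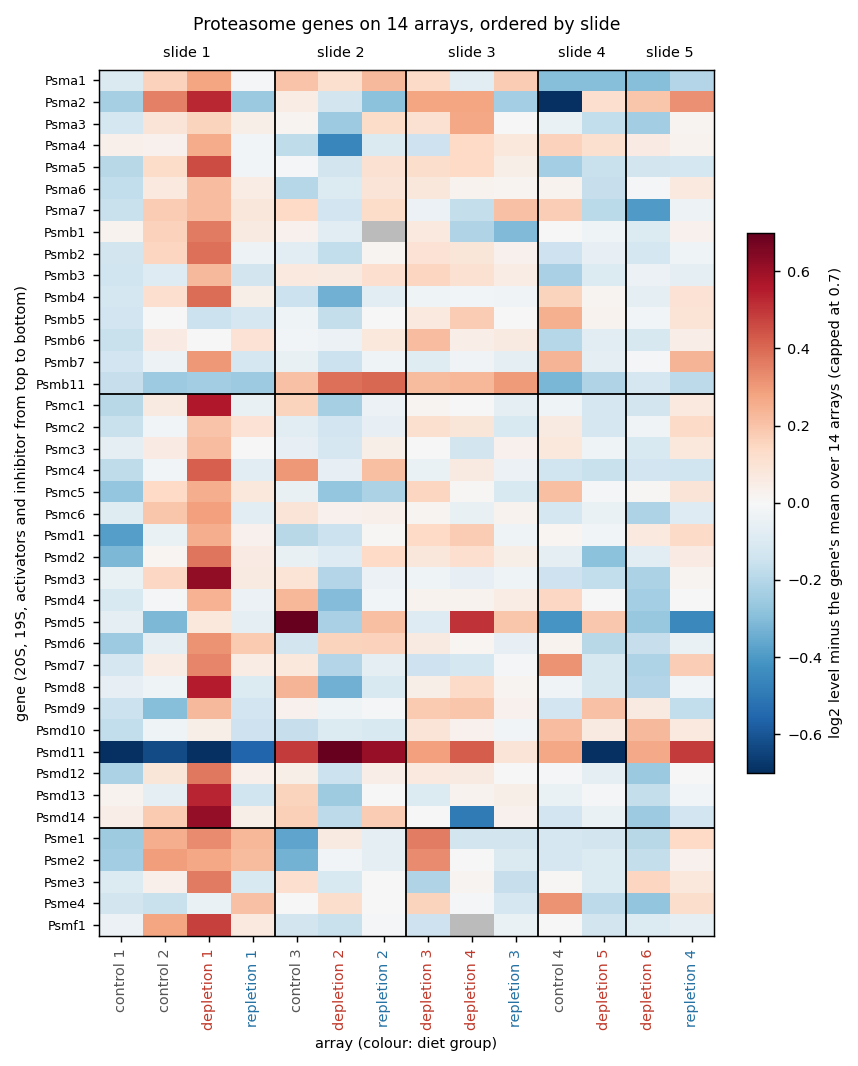
Log2 level minus the gene's mean over 14 arrays (colour, capped at 0.7) for 40 genes (rows; Psma8 left out as dim) on each array (columns), ordered by slide, with label colour for diet and grey for missing values. The column of depletion replicate 1 is mostly red: 37 of the 41 members (Psma8 included) lay above their mean, against 40.7% of all genes. The exceptions were Psmb5, Psmb11, Psmd11 and Psme4. Control replicate 1, on the same slide, is mostly blue, with 4 of 41 above their mean, against 39.3% of all genes.

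The core and the regulatory particle moved by like amounts on depletion replicates 1, 2, 5 and 6 and control replicate 1, but not on the other control arrays. The score of a subcomplex is the mean deviation of its genes from their own means. It covers 15 genes of the 20S core (without the dim Psma8 but with Psmb11). For 19S it covers 20 genes of the particle or its assembly, with the chaperones Psmd5, Psmd9 and Psmd10. The 20S score was 0.23 on depletion replicate 1 and -0.13 on control replicate 1, and the 19S score 0.28 and -0.17. Depletion replicates 2, 5 and 6 had 20S scores of -0.11, -0.08 and -0.09 and 19S scores of -0.10, -0.10 and -0.10. On control replicates 2, 3 and 4 the 20S scores were 0.07, -0.00 and -0.10 and the 19S scores -0.03, 0.10 and 0.00. The 20S score minus the 19S score lay between -0.10 and 0.10 on every array and was at both ends in control. By group the 20S score was -0.04 ± 0.09 (SD, n = 4) in control, 0.02 ± 0.13 (n = 6) in depletion and 0.01 ± 0.04 (n = 4) in repletion, and the 19S score -0.02 ± 0.11, 0.01 ± 0.15 and 0.01 ± 0.04. The 4 repletion arrays thus lay closest together and within the range of both other diets. The depletion means include depletion replicate 1, while the depletion medians were -0.01 for 20S and -0.03 for 19S. Depletion replicates 3 and 4 had 20S scores of 0.08 and 0.07 and 19S scores of 0.04 and 0.05.

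**Figure D4:**
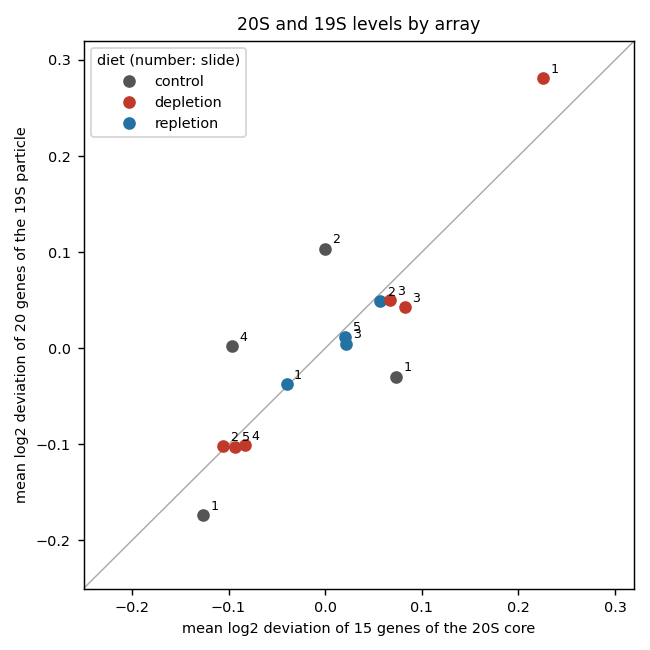
Mean log2 deviation of 15 genes of the 20S core (x axis) and of 20 genes of the 19S particle or its assembly (y axis) on each of the 14 arrays. Points are coloured by diet and numbered by slide, with the line of equality. Depletion replicate 1 stands alone at 0.23 and 0.28, and control replicate 1 is at the other end at -0.13 and -0.17.

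Within slides the sign of the members' median differed between slides. Depletion minus control had a median of 0.32 over 41 members on slide 1 (all genes -0.04), -0.10 on slide 2 (all genes -0.01) and -0.08 on slide 4 (all genes -0.09), where the members did not stand apart from all genes. Repletion minus depletion had medians of -0.29, 0.15, -0.07 and 0.13 on slides 1, 2, 3 and 5, where all genes had 0.13, 0.02, -0.03 and 0.03. Repletion minus control had 0.02 on slide 1 (all genes 0.08) and 0.02 on slide 2 (all genes 0.01). With the exception of depletion against control on slide 1, repletion against depletion on slide 3 and repletion against control on slide 1, each of these sets 1 array against 1. Of the total variance of a gene over the 14 arrays, slide held a median share of 0.324 and diet 0.061 over the 38 members measured well above background on every array, against 0.425 and 0.086 over all such genes. Each share was taken without adjusting for the other. A share grows by chance with the number of groups, here 5 slides and 3 diets, so slide and diet shares cannot be compared with each other. The median SD over arrays was 0.169 for these members and 0.285 for all such genes.

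After slide and diet were removed, the 38 members were set against the mean of the others over the 14 arrays, as a description. The correlation r had a median of 0.80 and was over 0.5 for 29 of 38, whereas the genes that are no members had a median r of 0.01 with the member mean, and 18.3% were over 0.5. Without depletion replicate 1 the median was 0.61, with 24 of 38 over 0.5, against 0.12 and 20.3% for other genes. The points share the arrays and their scaling, and removing slide and diet leaves 7 residual degrees of freedom, so they are fewer than 14 independent points. Pairs of 20S genes had a median r of 0.53, pairs of 19S genes 0.67, and 20S with 19S pairs 0.59, all with depletion replicate 1. Over all 703 pairs of members the median r was 0.57 with that array and 0.39 without it. Psmd12, a lid subunit, and Psmb4 had r of 0.99 each, and 0.98 and 0.96 without depletion replicate 1; Psmc1 had 0.97 and 0.91. Psmb6 was at 0.39 with that array and 0.86 without it. Psmd13 and Psmd14, at 0.75 and 0.65 with it, were at -0.00 and 0.08 without it. Low or negative throughout were Psmb11 (-0.68 and -0.73), Psmd11 (0.01 and 0.05), Psmd5 (0.10 and -0.12) and Psme4 (0.20 and 0.24).

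**Figure D5:**
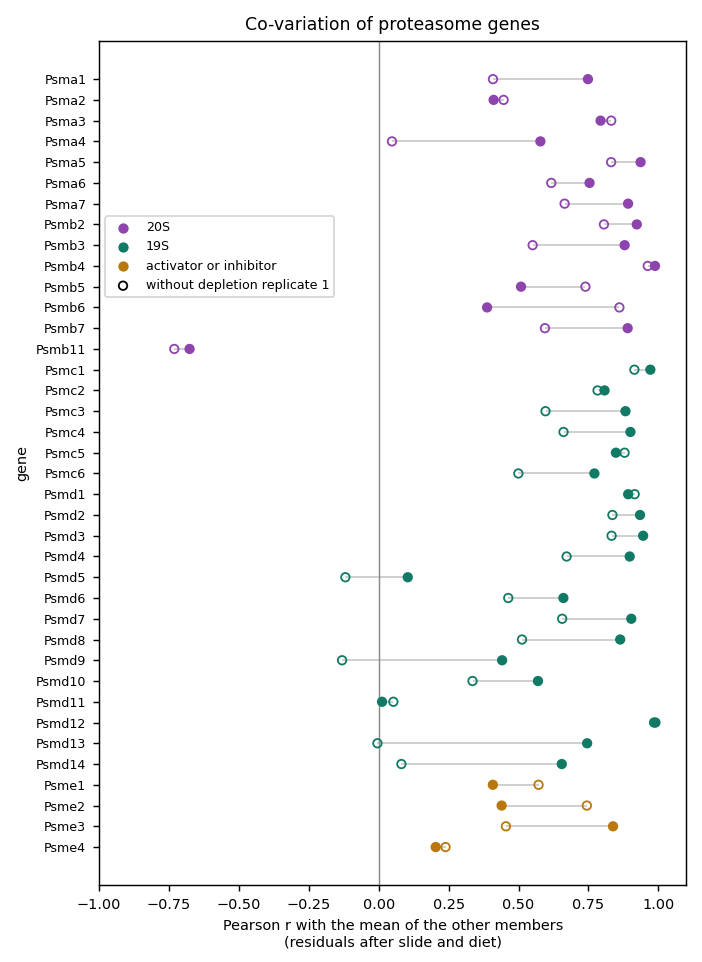
Pearson r (x axis) of each of 38 genes (y axis) with the mean of the other members over residuals after slide and diet, with all 14 arrays (filled) and without depletion replicate 1 (open), coloured by subcomplex. Most filled points lie over 0.5 (29 of 38), Psmb11 lies at -0.68, and the open points of Psmd13 and Psmd14 lie near 0.

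Other genes of the pathway were taken from lists. In depletion minus control, 2.21% of all genes were higher and 2.56% lower at an unadjusted p under 0.05. Of 5 measured assembly factors outside the rule, Psmg2, a chaperone of the alpha ring, was lower in depletion than in control by -0.21 ± 0.09 (unadjusted p 0.038, limma adjusted p 0.832), and limma called 0 in any comparison. Of 19 measured regulators and partners 0 had an unadjusted p under 0.05 in any comparison; 10 were above 0 in depletion minus control (46.1% of all genes were), with a median of 0.03. Nfe2l1 was at 1.47 ± 0.14 (SD, n = 4) in control, 1.48 ± 0.16 (n = 6) in depletion and 1.45 ± 0.36 (n = 4) in repletion, and depletion minus control was -0.05 ± 0.13. Set against the same member mean over all 14 arrays, the segregase cofactor Nploc4 had r of 0.97 and the shuttle factor Rad23b 0.96. The ubiquitin receptor Adrm1 had 0.93 and Nfe2l1 0.49, where 18.3% of the genes that are no members were over 0.5. At the other end, Ddi2, the protease that activates the Nfe2l1 product, had -0.72, and the ubiquitin-activating enzyme gene Uba6 -0.90. Values of r without depletion replicate 1 are not given for these genes. Among 6 ubiquitin genes and both muscle ubiquitin ligases, Fbxo32 and Trim63, 0 had an unadjusted p under 0.05 in any comparison, and both ligases were below 0 in depletion minus control (-0.30 ± 0.26 and -0.17 ± 0.43).

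Depletion replicate 1 stood at an end of the 14 arrays for red blood cell, fibroblast, Schwann cell and skeletal muscle markers, and within the range of the others for leukocyte (0.12), endothelial (-0.04) and adipocyte (-0.14) markers. The mean deviation of 4 red blood cell markers was 1.52 there, against -0.61 to -0.15 on the control arrays and -0.43 to 0.37 on the repletion arrays, and the other 5 depletion arrays lay between -0.66 and 0.45. That of 4 fibroblast markers was -0.98 there, against -0.20 to 0.73 on the control arrays, -0.36 to 0.40 on the repletion arrays and -0.70 to 0.31 on the other depletion arrays. All 8 of these markers, among them Hbb and Col1a1, were well above background on 14 of 14 arrays. The mean deviation on that array was -0.27 for the 9 skeletal muscle markers, with control replicate 1 at -0.23 and repletion replicate 3 at -0.22. For the 4 Schwann cell markers it was -0.66, with depletion replicate 3 at -0.55 and control replicate 3 at -0.54. The part of these differences in the proteasome values was not tested.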

How the data were processed

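Spot intensity was measured on 14 arrays and, per the file headers, the deposited scanner files hold Agilent Feature Extraction processed signals, background-subtracted and detrended within each array. The authors used limma and Agilent Feature Extraction 11.5.1.1, per the submitters' processing notes. The authors' deposited table holds log2 values of 26902 probes; its normalization between arrays was not stated in the sources used here, and it served as an alternative. Coordinates are those of the files (rn4).

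Control spots and spots marked as outliers were dropped, repeated spots of 1 probe averaged, and the processed signals divided by their array's 75th percentile before log2. Of 30367 probes, 26391 were kept, each well above background on at least 4 arrays with at least 2 values per group. A gene was represented by its brightest kept probe (36 members have 1 probe, 5 have several). The 3 groups were fitted together with limma 3.58.1 in R 4.3.3 with slide as a fixed block (7 residual degrees of freedom), with empirical Bayes moderation and Benjamini-Hochberg adjustment over all kept probes. The threshold was an adjusted p of 0.05. The fit was tested on simulated data. Python 3.11.15, pandas 2.3.3, numpy 2.4.6 and matplotlib 3.10.9 were used.

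Genes named were the 3 with the smallest unadjusted p per direction and comparison, the catalytic, activator, inhibitor and immunoproteasome genes, Nfe2l1, the 2 brightest and 2 dimmest of each subcomplex, members whose probes differ in sign, and up to 3 of other lists; genes beside these were chosen after their values were seen. The members and lists were chosen with earlier results of these data known. Same-numbered replicates on different slides did not deviate together (median r -0.24 over 7 pairs), whereas arrays of 1 slide with different numbers did (median r 0.55 over 7 pairs), so the numbers were not used as pairs. Alternatives were no slide block, slide as a random block, replicate number as a block, normexp background correction (offset 50), quantile normalization, the authors' values, other filters, outlier-marked spots kept, the mean of a gene's probes, depletion replicate 1 counted as repletion, and each array left out in turn.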

Additional observations from a re-analysis of the deposited data

Results flagged for a closer look

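Within a diet group, 131 sets of values, of the 41 genes and of the 20S score, the 19S score and their difference, were searched for an array that stood far from the rest, by its gap to the nearest value relative to the range of the group. In 10 an array stood apart; chance alone marks about 1 in 20 such sets, and members that move together are not independent. Depletion replicate 1 was the high array in 6 of the 10: Psmb7 at 3.18 (next 2.87), Psmc1 at 3.42 (next 2.87), Psmd3 at 1.77 (next 1.12), Psmd7 at 2.55 (next 2.10), Psmd13 at 1.94 (next 1.44) and Psmf1 at 1.84 (next 1.27, 5 arrays). In control, Psma7 was lowest in replicate 1 at 4.07 (next 4.37), and Psmd8 was highest in replicate 3 at 2.04 (next 1.77). In repletion, Psma2 was highest in replicate 4 at 2.43 (next 1.87), and Psmd2 was highest in replicate 2 at 5.04 (next 4.95).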

How the results depend on the processing

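Limma called 0 of 41 members in each comparison under every setting for which calls were counted, leave-one-out fits included; for the mean of a gene's probes calls were not counted. Settings without the slide block but without depletion replicate 1, and the authors' values without the slide block, were added after the data were seen. The members' median for depletion minus control (0.05) ran from -0.04 to 0.08 over the settings and from -0.077 (without depletion replicate 1) to 0.10 with single arrays left out. For repletion minus depletion (-0.00) these ranges were -0.06 to 0.10 and -0.04 to 0.08, and for repletion minus control (0.06) -0.00 to 0.09 and -0.01 to 0.12. With depletion replicate 1 counted as repletion the medians were -0.02, 0.10 and 0.09. With normexp the median of all genes was -0.14, -0.01 and -0.11, while the members' were 0.05, -0.01 and 0.05, so relative to all genes the members lay higher in both comparisons with control; their direction against 0 held. The 20S median minus the 19S median in repletion minus depletion (0.06) was 0.028 without slide block, -0.057 with depletion replicate 1 counted as repletion, 0.030 with normexp, 0.032 on the authors' values, 0.033 on those without slide block, -0.0034 without slide block and depletion replicate 1, and -0.024 to 0.070 with single arrays left out. The same contrast ran from -0.083 (without control replicate 3) to 0.072 in depletion minus control and from -0.050 to 0.065 in repletion minus control with single arrays left out.

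Psmd11 turned its sign in depletion minus control without slide block (0.14), with replicate block (0.31), without slide block and depletion replicate 1 (0.31) and on the authors' values without slide block (0.046), and ran from -0.47 to 0.066 with single arrays left out. In repletion minus control it was 0.31 without slide block, 0.052 with slide as a random block, 0.31 with replicate block, 0.31 without slide block and depletion replicate 1 and 0.18 on the authors' values without slide block, and ran from -0.38 to 0.063 with single arrays left out. Psme4 in repletion minus depletion was -0.0029 with replicate block. Psme3 in repletion minus control was 0.013 with depletion replicate 1 counted as repletion and ran from -0.13 to 0.0081 with single arrays left out. The cause was not tested. With replicate block in place of slide the members' medians were 0.08, -0.06 and 0.01, and 0 were called. Signal over background limits Psma8.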
